A study of Bubalus bubalis with 6 samples.

Results

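Insulin acts on fat cells through a chain of proteins that starts at the insulin receptor (INSR). The activated receptor phosphorylates the adaptor proteins IRS1 and IRS2, which recruit phosphoinositide 3-kinase (PI3K), an enzyme of a regulatory subunit such as PIK3R1 and a catalytic subunit such as PIK3CA. The lipid that PI3K makes brings AKT1 and AKT2 to the membrane, where PDPK1 phosphorylates them, and active AKT keeps the transcription factors FOXO1 and FOXO3 out of the nucleus. AKT2 is the isoform most tied to glucose uptake in fat cells, and FOXO1 is known in mouse cells as a brake on fat cell formation. Much of this control is exerted on protein phosphorylation, which was not measured here; the values below are transcript levels.

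The genes described are these 10, INSR, IRS1, IRS2, PIK3R1, PIK3CA, PDPK1, AKT1, AKT2, FOXO1 and FOXO3. They were found by gene name in the deposited table, and every gene model that carries one of the names was kept, which gave 12 models of the 19476 in the table. The cells were cultured intramuscular adipocytes of water buffalo (Bubalus bubalis) that had been given an adenovirus for lncFABP4, a long non-coding RNA, with genotype labelled as lncFABP4 overexpression, or an adenovirus for EGFP (a green fluorescent protein), with genotype labelled WT. There were 3 samples per group, and all 6 carried a virus and were taken through adipogenic differentiation. They were induced for 48 hours after 48 hours of transduction and collected on day 4. Wells were set up in triplicate, and no label ties a replicate to its own animal or culture; the spread that p-values are read against may therefore be technical.

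Values were read as FPKM, which corrects fragment numbers for model length and for sequencing depth, so that levels of different genes can be compared. Column totals were 340165 to 360920 FPKM, and the number of reads behind a value is unknown. FABP4, the gene that gives the RNA its name, stood at 6505, 10588 and 12003 FPKM in lncFABP4 replicates 1, 2 and 3. In the EGFP replicates it stood at 154, 149 and 197 FPKM. No model is named as lncFABP4 itself, and whether reads of lncFABP4 are counted in the FABP4 model was not tested. Of 15 markers of mature fat cells, 12 were matched, and their summed level was 6621 to 12145 FPKM in the lncFABP4 samples, against 234 to 278 FPKM in the EGFP samples, most of it FABP4. Of the 7 of these models that were tested, limma called 5 higher and 1 lower in the lncFABP4 samples. PPARG, a nuclear receptor that drives adipogenesis, averaged 25.2 ± 1.77 FPKM in the lncFABP4 samples and 12.2 ± 0.527 FPKM in the EGFP samples (SD, n = 3 each; limma adjusted p = 3.2e-04). CD36, a fatty acid transporter, averaged 72.0 ± 14.5 FPKM in the lncFABP4 samples and 41.1 ± 3.38 FPKM in the EGFP samples (limma adjusted p = 0.00683), and the lipases LIPE and PNPLA2 were the other models called higher beside FABP4. The call of PNPLA2 (0.35 on the log2 scale) was lost without lncFABP4 replicate 3 (limma adjusted p = 0.0723), EGFP replicate 2 (0.0522) or EGFP replicate 3 (0.0628). LPL, lipoprotein lipase, was the model called lower, at 0.999 ± 0.160 FPKM in the lncFABP4 samples and 2.78 ± 0.710 FPKM in the EGFP samples (limma adjusted p = 0.00349). ADIPOQ, the gene of adiponectin, and CEBPA, a transcription factor of mature fat cells, did not reach 0.2 FPKM in any sample. SLC2A4, the insulin-responsive glucose transporter at the end of the pathway, stood at 0.604, 0.357 and 0.431 FPKM in the lncFABP4 samples, against 0.627, 0.536 and 0.469 FPKM in the EGFP samples. Markers of fibroblasts and fibro-adipogenic progenitors (10 of 11 matched) summed to 11143 to 11918 FPKM in the lncFABP4 samples, against 15758 to 16659 FPKM in the EGFP samples. Of 8 tested models limma called 6 lower and 0 higher, where 10.2% of all tested models were called lower. COL1A2, the most abundant of them, was not called (limma adjusted p = 0.0964), nor was PDGFRB, whose groups overlapped. PI16 and CD34 were not tested. PI16 averaged 0.479 FPKM in the lncFABP4 samples and 0.907 FPKM in the EGFP samples, whereas CD34 was higher, at 0.135 against 0.031 FPKM. Skeletal muscle, endothelial and blood cell markers each summed to less than 11 FPKM in every sample. Both tested skeletal muscle models, DES and MYH3, were called lower, the 1 tested endothelial model higher, and the 1 tested blood cell model was not called. MYH3 was low, at 0.683 FPKM on average in the lncFABP4 samples and 1.31 FPKM in the EGFP samples. DES is also counted among the smooth muscle and pericyte models called lower. Smooth muscle and pericyte markers summed to 201 to 257 FPKM in the lncFABP4 samples, against 150 to 213 FPKM in the EGFP samples, but of 9 tested models 3 were called higher and 3 lower. ACTA2, smooth muscle actin, was the most abundant of them, at 168 ± 32.1 FPKM in the lncFABP4 samples and 94.2 ± 25.7 FPKM in the EGFP samples (SD, n = 3 each; limma adjusted p = 0.0198). Its call was lost without lncFABP4 replicate 2 (limma adjusted p = 0.0599) or lncFABP4 replicate 3 (0.0638). KCNJ8 and ABCC9, which encode subunits of a potassium channel of pericytes, were called lower, at 18.4 ± 6.01 and 4.92 ± 0.126 FPKM in the lncFABP4 samples, against 48.8 ± 3.58 and 10.7 ± 1.30 FPKM in the EGFP samples (limma adjusted p = 0.00196 and 6.7e-04). These markers were named after their values were seen. In such bulk samples fewer cells of a type and less RNA per cell cannot be told apart, and the part of these markers in the results below was not tested.

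Of the 12 models, 11 reached 1 FPKM in at least 3 samples and were tested. The model left out is a second one named IRS1, matched to a frog IRS1 protein, which stood at 0.195, 0 and 0.155 FPKM in the lncFABP4 samples, against 0.184, 0.0828 and 0.161 FPKM in the EGFP samples. It lies between models of LRCH4 and AGFG2, whereas the tested IRS1 model has RHBDD1 as its next named neighbour, as does the only IRS1 gene in RefSeq's table for the buffalo assembly NDDB_SH_1. The 2 models named IRS2 follow each other in the authors' numbering (evm.model.chr13.370 and evm.model.chr13.369). They lie between MYO16 and COL4A1, and RefSeq lists 1 IRS2 gene between the same neighbours. Whether these models are parts of 1 gene was not tested; if they are, adding their levels overstates that of the gene.

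AKT1 was the most abundant of these genes in all 6 samples, and INSR and IRS1 were among the least abundant. AKT1 averaged 96.8 ± 10.9 FPKM in the lncFABP4 samples and 94.6 ± 2.34 FPKM in the EGFP samples (SD, n = 3 each), a level above that of 94.9% of tested models. PIK3CA, AKT2, PDPK1 and PIK3R1 came next, with means between 19.8 and 28.2 FPKM over both groups. Among the lncFABP4 samples each of these 4 overlapped with its neighbour in the order, and among the EGFP samples AKT2, PIK3CA and PIK3R1 did, with PDPK1 below them. FOXO1, FOXO3 and the more abundant IRS2 model followed, between 8.80 and 13.6 FPKM on average. The other IRS2 model, INSR and IRS1 were lowest, between 3.15 and 4.56 FPKM on average in the lncFABP4 samples and between 3.38 and 4.60 FPKM in the EGFP samples. The order of the last 2 differed between the groups: IRS1 was above INSR in each lncFABP4 sample, whereas their ranges overlapped in the EGFP samples.

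**Figure D1:**
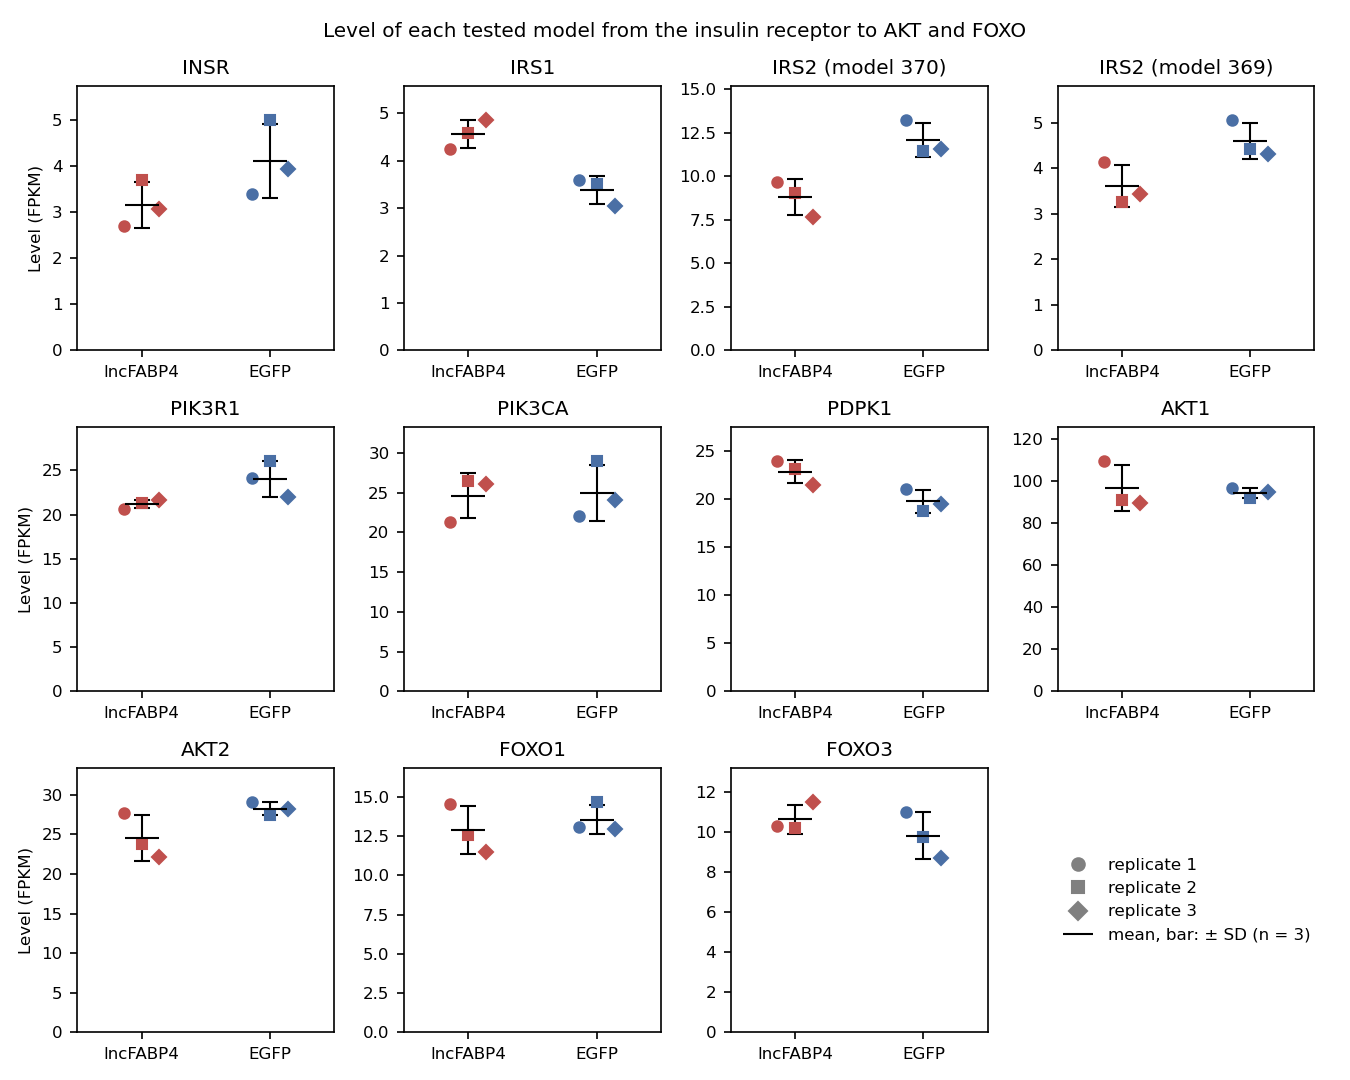
Level in FPKM (vertical axis, from 0) of each of the 11 tested models in the 3 lncFABP4 and the 3 EGFP samples; circles, squares and diamonds are replicates 1, 2 and 3, and the line and bar are the mean ± SD. IRS1 is higher and both IRS2 models are lower in every lncFABP4 sample than in any EGFP sample, and the AKT1 and FOXO1 groups overlap.

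The 2 receptor substrates moved in opposite directions. IRS1 rose and the more abundant IRS2 model fell, and these were the 2 calls among the 11 models tested at a limma adjusted p under 0.05, that is 18.2%. Over all 11064 models tested 26.7% were called (16.5% higher and 10.2% lower), and a count of 2 in 11 is near that background. With TMM factors 1412 of all models were higher and 1459 lower. In 5 of the 11, or 45.5%, the lncFABP4 and EGFP ranges were separate, against 43.9% of all models (26.6% higher and 17.2% lower), which is close to that background. The median log2 change of the 11 was -0.07, beside 0.05 over all models, and the median absolute change was 0.20 in both.

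At the top of the chain, INSR stood at 2.71, 3.69 and 3.07 FPKM in the lncFABP4 samples, against 3.39, 4.98 and 3.94 FPKM in the EGFP samples. The groups overlapped, since lncFABP4 replicate 2 lay above EGFP replicate 1. The log2 change was -0.29 (95% interval -0.61 to 0.03, limma adjusted p = 0.155).

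IRS1, the first receptor substrate described, stood at 4.25, 4.59 and 4.85 FPKM in the lncFABP4 samples, against 3.60, 3.50 and 3.04 FPKM in the EGFP samples. All 3 lncFABP4 samples were above all EGFP samples, and IRS1 rose by 0.35 on the log2 scale (SE 0.09; limma adjusted p = 0.0295), a 1.35-fold difference of the means. The more abundant model of IRS2, the adaptor that FOXO factors themselves are known to induce in mouse liver, stood at 9.69, 9.02 and 7.67 FPKM in the lncFABP4 samples, against 13.2, 11.4 and 11.6 FPKM in the EGFP samples. Every lncFABP4 sample was lower, by 0.42 on the log2 scale (SE 0.10; limma adjusted p = 0.0204), and the mean was 27.2% lower. Its neighbour model stood at 4.13, 3.25 and 3.44 FPKM in the lncFABP4 samples, against 5.05, 4.43 and 4.32 FPKM in the EGFP samples. These groups did not overlap either, but the change of -0.28 did not pass the test (95% interval -0.53 to -0.04, limma adjusted p = 0.0819); without lncFABP4 replicate 1 it was -0.36 and passed (limma adjusted p = 0.0318).

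The IRS calls rested on small margins. Each was kept without lncFABP4 replicate 1 or EGFP replicate 2 and lost without lncFABP4 replicate 2 (limma adjusted p = 0.0870 for IRS1 and 0.0506 for IRS2), lncFABP4 replicate 3 (0.113 and 0.0751), EGFP replicate 1 (0.0541 and 0.0745) or EGFP replicate 3 (0.104 and 0.0505). The direction was the same in each of these fits, with log2 changes from 0.29 to 0.39 for IRS1 and from -0.49 to -0.33 for IRS2. The call of IRS1 was also lost with TMM factors (limma adjusted p = 0.0542), median-of-ratios factors (0.0536) and no filter on low values (0.0650), while that of IRS2 was kept in each of these (0.0146, 0.0147 and 0.0443).

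**Figure D2:**
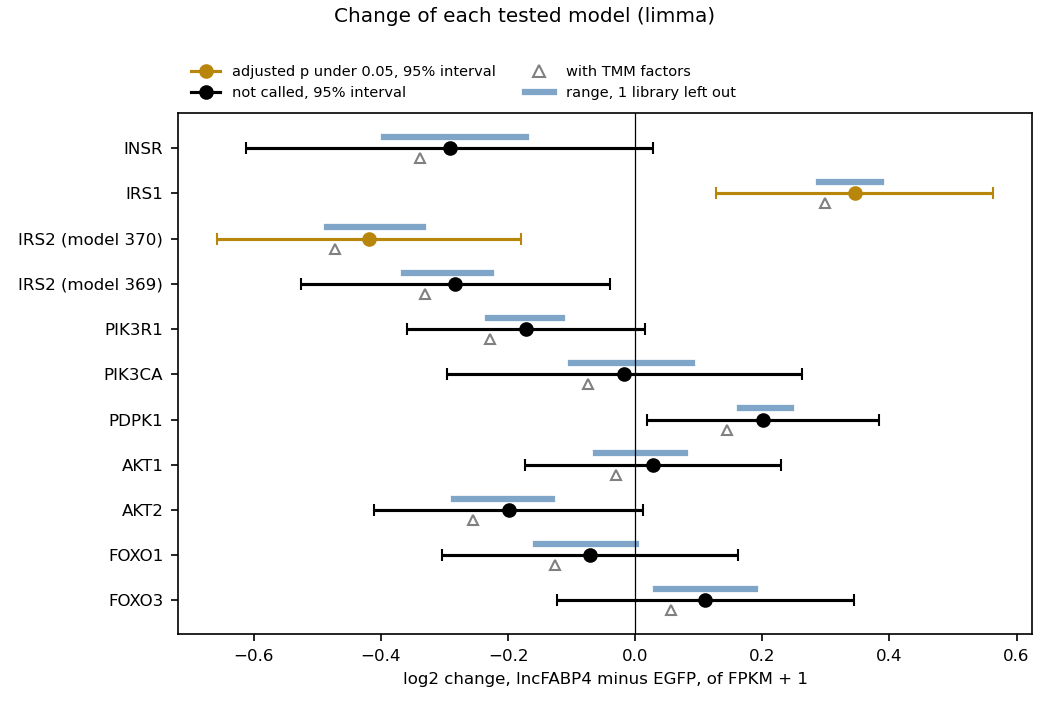
Change of each tested model on the log2(FPKM + 1) scale, lncFABP4 minus EGFP (horizontal axis), with its 95% interval from limma; triangles give the change with TMM factors, and thick bars the range when 1 library is left out. The intervals of IRS1, both IRS2 models and PDPK1 lie on 1 side of 0, and only IRS1 and the more abundant IRS2 model pass the adjusted threshold.

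Within a sample the scaling of the library cancels, so the balance of the substrates could be read directly. The ratio of IRS1 to IRS2, with models of a name added, was 0.321, 0.374 and 0.450 in the lncFABP4 samples, against 0.207, 0.226 and 0.202 in the EGFP samples. All lncFABP4 ratios were above all EGFP ratios, by a log2 difference of 0.84, or 1.79-fold. This order was fixed by the levels, since every lncFABP4 sample had more summed IRS1 and less summed IRS2 than any EGFP sample. The separation and its p-value therefore restate those levels and are no separate support. The exact two-sided permutation test gave p = 0.1, the smallest value that 3 against 3 samples allow, and 0.2 after adjustment over the 4 pairs of genes compared. The IRS1 sum includes the untested second model, which lies between LRCH4 and AGFG2 and not beside RHBDD1. When only the model with the highest level was used for IRS2 and for IRS1, the log2 difference was 0.89. The lncFABP4 sample with the least FABP4, replicate 1, had the lowest ratio of its group, and replicate 3, with the most FABP4, the highest. In the EGFP samples the order was the reverse. There replicate 2, with the least FABP4, had the highest ratio, and replicate 3, with the most FABP4, the lowest. In each group 3 samples are too few to test a relation. IRS4, the third substrate gene matched, did not reach 0.02 FPKM in any sample.

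In the PI3K enzyme, PIK3R1 and PIK3CA did not pass the test. PIK3R1, the regulatory subunit that holds and stabilises the catalytic one, stood at 20.7, 21.3 and 21.6 FPKM in the lncFABP4 samples, against 24.1, 26.0 and 21.96 FPKM in the EGFP samples. The groups were separated by a gap of 0.365 FPKM, with a log2 change of -0.17 (95% interval -0.36 to 0.02, limma adjusted p = 0.153). PIK3CA, the catalytic subunit that is most often mutated in human tumours, stood at 21.3, 26.5 and 26.1 FPKM in the lncFABP4 samples, against 22.02, 28.9 and 24.0 FPKM in the EGFP samples. These groups overlapped almost fully (log2 change -0.02, 95% interval -0.30 to 0.26, limma adjusted p = 0.927). The ratio of PIK3R1 to PIK3CA was 0.967, 0.804 and 0.827 in the lncFABP4 samples and 1.10, 0.899 and 0.913 in the EGFP samples, with overlap (exact permutation p = 0.3).

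PDPK1, the kinase that phosphorylates AKT in its activation loop, stood at 24.0, 23.2 and 21.6 FPKM in the lncFABP4 samples, against 21.1, 18.8 and 19.5 FPKM in the EGFP samples. Each lncFABP4 sample was above each EGFP sample, but the change of 0.20 did not pass the test (95% interval 0.02 to 0.38, limma adjusted p = 0.0970).

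AKT1 and AKT2 encode closely related kinases that respond to PI3K. AKT1 stood at 109, 91.2 and 89.8 FPKM in the lncFABP4 samples, against 96.7, 92.0 and 94.98 FPKM in the EGFP samples. The EGFP values lay inside the lncFABP4 range, which replicate 1 widened upwards, and the log2 change of 0.03 (95% interval -0.17 to 0.23, limma adjusted p = 0.834) turned to -0.03 with TMM factors. AKT2 stood at 27.7, 23.8 and 22.1 FPKM in the lncFABP4 samples, against 29.0, 27.4 and 28.2 FPKM in the EGFP samples. Replicate 1 was again the highest of the lncFABP4 samples and overlapped with the EGFP range (log2 change -0.20, 95% interval -0.41 to 0.01, limma adjusted p = 0.145). Without it the change was -0.29 and passed the test (limma adjusted p = 0.0249).

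The ratio of AKT1 to AKT2 varied little within groups. It was 3.95, 3.83 and 4.06 in the lncFABP4 samples, against 3.33, 3.36 and 3.37 in the EGFP samples. The 2 sets did not overlap, and the log2 difference was 0.23, or 1.18-fold, which leaving out any 1 library moved to between 0.21 and 0.26. The exact two-sided permutation test again gave p = 0.1, the smallest possible, and 0.2 after adjustment over the 4 pairs.

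**Figure D3:**
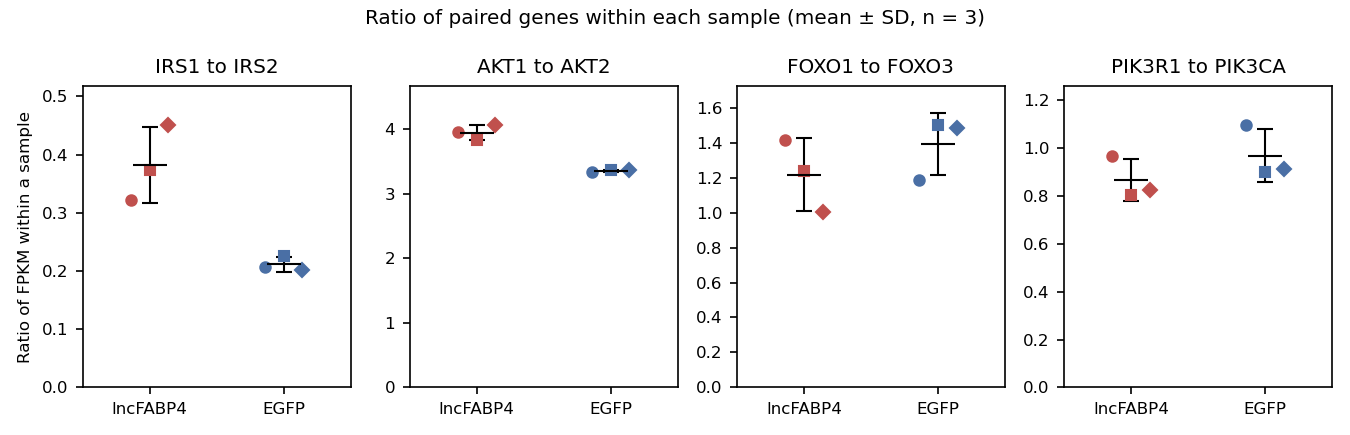
Ratio of FPKM of 2 genes within a sample (vertical axis, from 0) for 4 pairs, models of a name added; circles, squares and diamonds are replicates 1, 2 and 3, and the line and bar are the mean ± SD of 3 samples. The IRS1 to IRS2 and AKT1 to AKT2 ratios are higher in every lncFABP4 sample than in any EGFP sample, and the other 2 pairs overlap.

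At the end of the chain, neither FOXO gene passed the test. FOXO1 stood at 14.6, 12.6 and 11.5 FPKM in the lncFABP4 samples, against 13.1, 14.6 and 12.9 FPKM in the EGFP samples, a log2 change of -0.07 (95% interval -0.30 to 0.16, limma adjusted p = 0.633). FOXO3, which shares many target genes with FOXO1, stood at 10.3, 10.2 and 11.5 FPKM in the lncFABP4 samples, against 11.04, 9.76 and 8.69 FPKM in the EGFP samples, a log2 change of 0.11 (95% interval -0.12 to 0.34, limma adjusted p = 0.450). Both pairs of groups overlapped, and so did the FOXO1 to FOXO3 ratio, which was 1.42, 1.24 and 1.00 in the lncFABP4 samples and 1.19, 1.499 and 1.487 in the EGFP samples (exact permutation p = 0.3).

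Paralogues outside the 10 names made up part of several steps; they are given here as a description chosen after the values were seen. IGF1R, the receptor for insulin-like growth factors that binds the same substrates, was far more abundant than INSR, at 21.4 ± 0.674 FPKM in the lncFABP4 samples and 23.3 ± 1.62 FPKM in the EGFP samples (SD, n = 3 each; log2 change -0.11, limma adjusted p = 0.302). The INSR share of the summed receptor level was 11.1% to 14.3% for lncFABP4 and 13.5% to 16.6% for EGFP, with overlap.

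Among the PI3K subunits, PIK3R1 made up 32.4% ± 1.41 of the summed regulatory subunits in the lncFABP4 samples and 41.4% ± 0.951 in the EGFP samples (SD, n = 3 each), without overlap. PIK3R3, another regulatory subunit, averaged 29.6 ± 4.34 FPKM in the lncFABP4 samples and 21.7 ± 2.92 FPKM in the EGFP samples (log2 change 0.43, limma adjusted p = 0.0407), and PIK3R2 averaged 14.7 ± 0.781 FPKM with lncFABP4 and 12.3 ± 0.647 FPKM with EGFP (log2 change 0.24, limma adjusted p = 0.0589). The groups of PIK3R3 overlapped, and its call was lost in 11 of 19 alternatives, TMM factors among them (0.37, limma adjusted p = 0.0706); without single libraries it was lost without lncFABP4 replicate 2 (0.125), lncFABP4 replicate 3 (0.125), EGFP replicate 1 (0.124) and EGFP replicate 3 (0.127). PIK3CA made up 89.5% ± 1.69 of the catalytic subunits in the lncFABP4 samples and 85.8% ± 1.22 in the EGFP samples. FOXO4 fell, to 4.81 ± 0.529 FPKM in the lncFABP4 samples, against 7.06 ± 0.464 FPKM in the EGFP samples (log2 change -0.47, SE 0.10, limma adjusted p = 0.0110). The FOXO1 share of the summed FOXO level was 41.02% to 48.5% for lncFABP4 and 41.6% to 47.3% for EGFP, with overlap.

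**Figure D4:**
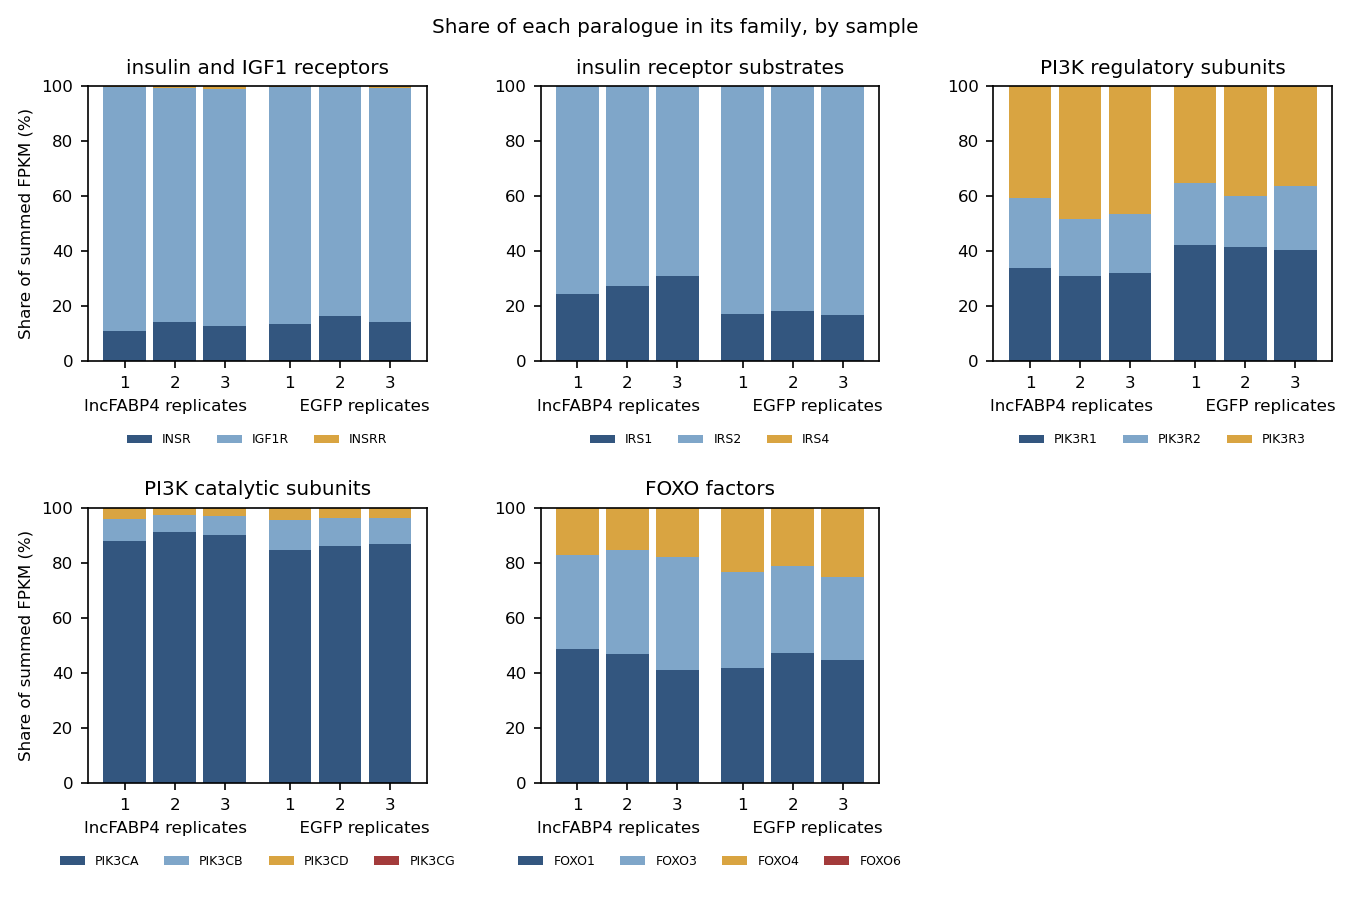
Share (%) of each paralogue in the summed FPKM of its family, with 1 bar per sample, lncFABP4 replicates on the left and EGFP replicates on the right. IRS1, PIK3R3 and PIK3CA take larger shares, and IRS2, PIK3R1, PIK3CB and FOXO4 smaller ones, in every lncFABP4 sample than in any EGFP sample.

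The genes around the chain were followed in 6 lists of 205 genes in all. Beside the 26.7% of all models that were called, the shares of called models were 36.0% among receptor level and adaptor proteins, 36.4% among phosphoinositide kinases and phosphatases, 27.3% among AKT partners and regulators, 26.3% among AKT substrates and the mTORC1 branch, 40.0% among other forkhead O factors and FOXO regulators, and 61.8% among FOXO target genes. No list was tested as a set.

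Of 25 models of receptor level and adaptor proteins, 6 rose, 3 fell and 16 were not called (median log2 change -0.03). ENPP1, a membrane protein that inhibits the insulin receptor, fell, at 7.15 ± 0.135 FPKM in the lncFABP4 samples and 14.8 ± 0.709 FPKM in the EGFP samples (SD, n = 3 each; log2 change -0.96, limma adjusted p = 0.000294). SOCS3, a cytokine-induced inhibitor that also targets IRS proteins, fell by 1.09 on the log2 scale. The adaptor SHC1, which links the receptor to the RAS pathway, rose by 0.44, and PTPRF, a receptor tyrosine phosphatase, by 0.45 in its model with the smallest p. The 6 models that rose are 3 of PTPRF, 2 of SHC1 and 1 of GRB2, so they stand for 3 gene names; GRB2 is named after its value was seen. This list had 5 calls without lncFABP4 replicate 3.

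Among phosphoinositide kinases and phosphatases 6 of 22 models rose and 2 fell (median log2 change 0.00). PIP5K1C, which makes the substrate of PI3K, rose by 0.61. PIP4K2A rose by 0.38 and PIK3CB, another catalytic subunit, fell by 0.41, but these calls were fragile. Each was lost without lncFABP4 replicate 2 (limma adjusted p = 0.0709 for PIP4K2A and 0.0782 for PIK3CB), lncFABP4 replicate 3 (0.0713 and 0.0586) or EGFP replicate 1 (0.0568 and 0.0645); PIP4K2A was also lost without EGFP replicate 3 (0.0708) and PIK3CB without EGFP replicate 2 (0.0583). The list had 2 calls without lncFABP4 replicate 2, lncFABP4 replicate 3 or EGFP replicate 1, 3 without EGFP replicate 3 and 5 without EGFP replicate 2, and 4 with TMM factors.

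Of 33 models of AKT partners and regulators, 6 rose and 3 fell (median log2 change 0.09). HSP90AA1 and CDC37, a chaperone and its co-chaperone that hold AKT and other kinases, rose by 0.91 (in the HSP90AA1 model with the smallest p) and 0.49. HSP90AB1, of the same family, averaged 959 ± 23.6 FPKM in the lncFABP4 samples and 939 ± 53.7 FPKM in the EGFP samples in its most abundant model. That model was not called (0.03, limma adjusted p = 0.757) and is named after its value was seen. SGK1, a kinase related to AKT that PDPK1 also activates, fell, at 5.32 ± 1.61 FPKM in the lncFABP4 samples and 16.4 ± 3.54 FPKM in the EGFP samples (SD, n = 3 each; log2 change -1.47, limma adjusted p = 0.00208). Leaving out a single library gave 5 to 12 calls in this list, with 5 without lncFABP4 replicate 2, lncFABP4 replicate 3 or EGFP replicate 1.

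Among AKT substrates and the mTORC1 branch 7 of 38 models rose and 3 fell (median log2 change 0.08). MDM2, the ubiquitin ligase of p53 and an AKT substrate, rose by 1.23, and PPP1R3C, which targets a phosphatase to glycogen, by 0.62. CDKN1B, the cell cycle inhibitor p27, fell, at 11.2 ± 1.20 FPKM in the lncFABP4 samples and 17.1 ± 0.826 FPKM in the EGFP samples (SD, n = 3 each; log2 change -0.57, limma adjusted p = 0.00395), and the translation factor EIF4B fell by 0.46. The list had 5 calls without EGFP replicate 1 and 6 without lncFABP4 replicate 2 or lncFABP4 replicate 3.

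Of 25 models of other forkhead O factors and FOXO regulators, 8 rose and 2 fell (median log2 change 0.16). Genes of 14-3-3 proteins, which bind phosphorylated FOXO in the cytoplasm, were among those that rose. YWHAG rose by 0.58, at 197 ± 16.9 FPKM in the lncFABP4 samples and 131 ± 2.50 FPKM in the EGFP samples (SD, n = 3 each; limma adjusted p = 0.00192), YWHAH by 0.55 and YWHAZ by 0.48 in its model with the smallest p. YWHAE, of the same family, was not called (0.13, limma adjusted p = 0.212) and is named after its value was seen. SIRT3, a mitochondrial deacetylase, rose by 0.91.

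FOXO target genes had the largest share of calls of the 6 lists, with 11 of 34 models higher and 10 lower (median log2 change -0.01), so the list moved in both directions. It was not split into genes that FOXO factors raise and genes that they lower, so the median gives no direction of FOXO activity. SOD2, the mitochondrial superoxide dismutase, fell, at 147 ± 18.2 FPKM in the lncFABP4 samples and 444 ± 10.6 FPKM in the EGFP samples (SD, n = 3 each; log2 change -1.59, limma adjusted p = 7.50e-05). BCL6, a transcriptional repressor, fell by 1.37, FBXO32, a ubiquitin ligase of muscle wasting, by 1.18, and TXNIP, an inhibitor of thioredoxin and of glucose uptake, by 1.11. Among the 11 models that rose were CCND1, by 1.02, and BBC3, by 0.92, both named after their values were seen. Leaving out a single library gave 13 to 20 calls; with 13 without lncFABP4 replicate 3 or EGFP replicate 3, this moved the count by more than 1.5 times. Several of these genes respond to other pathways as well, such as those of NF-kB, p53 or glucocorticoids, and the part of FOXO in their levels was not tested.

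**Figure D5:**
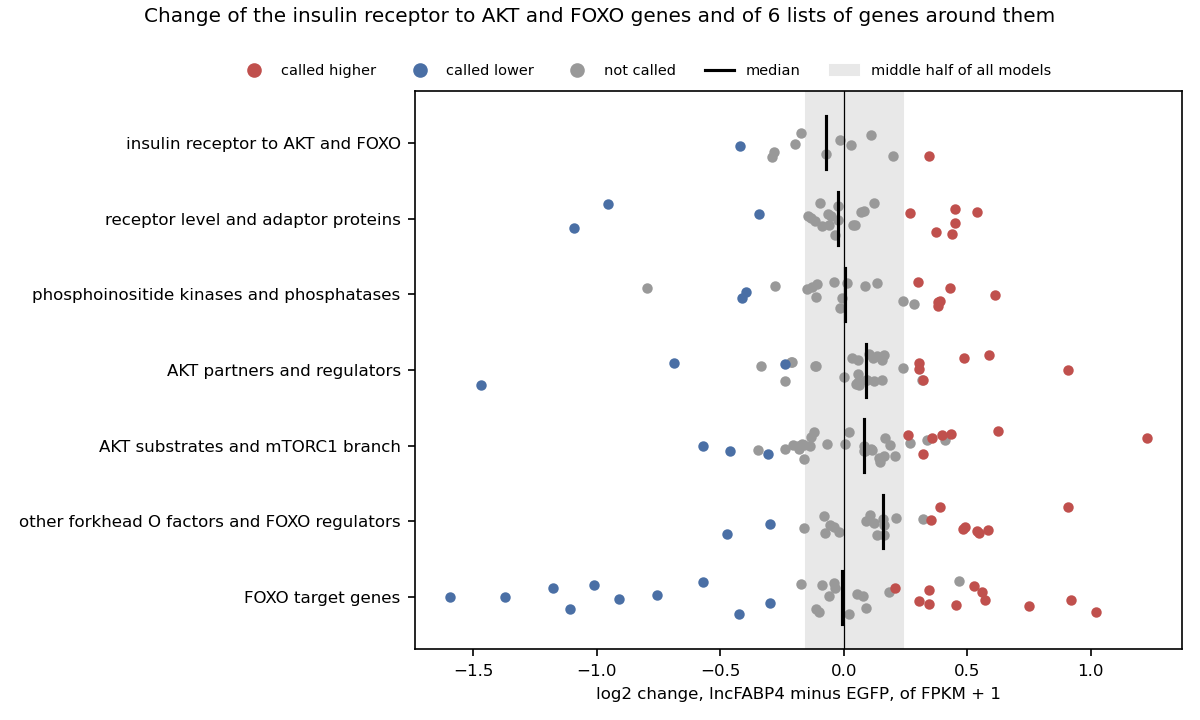
Change on the log2(FPKM + 1) scale, lncFABP4 minus EGFP (horizontal axis), of each tested model of the 10 genes and of the 6 lists; red points were called higher, blue points lower and grey points not called, black lines are medians and the grey band holds the middle 50% of all tested models. Points of the FOXO target genes lie between -1.59 and 1.02, while those of the 10 genes lie between -0.42 and 0.35.

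The more abundant IRS2 model had the largest absolute change of the 11. Among the named models whose profile over the 6 samples was closest to it, by the root mean square difference of log2(FPKM + 1) after each model's mean was removed, were LHX8 (0.039), a homeobox factor, and SLCO3A1 (0.045), an anion transporter. SLCO3A1 stood at 1.55, 1.51 and 1.09 FPKM in the lncFABP4 samples, against 2.51, 2.27 and 2.09 FPKM in the EGFP samples. Like IRS2, it was highest in replicate 1 of each group and lower in every lncFABP4 sample than in any EGFP sample. Its change of -0.47 (limma adjusted p = 0.0186) did not pass without lncFABP4 replicate 3 (0.0701) or EGFP replicate 1 (0.0670).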

How the data were processed

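Polyadenylated RNA of 6 samples was sequenced on a DNBSEQ platform. The tools HISAT2 and StringTie come from the submitters' processing notes, which give no version. The genome build is not given in the sources used here, and coordinates were left out. The deposited table was read as FPKM, since its decimals sum to different totals per sample and its header names no unit. Steps of single reads in models under 0.3 FPKM gave a depth of 0.926 to 1.01 relative to EGFP replicate 1; absolute depth is unknown.

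The 11064 models that reached 1 FPKM in 3 or more samples were compared on log2(FPKM + 1) by the two-sided test of limma (version 3.58.1, R version 4.3.3; trended prior variance). Differences are lncFABP4 minus EGFP, with no block for replicate number and Benjamini-Hochberg adjustment over all of them at 0.05. A change on this scale understates that of low genes. Gene names come from the authors' protein matches, and 4570 models had none. Near-identical genes can share reads. Ratios within a sample were compared by an exact two-sided permutation test over the samples. The limma test, not the permutation test, was tried on simulated data.

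The genes, lists and tests were chosen with earlier results of these data known. The text names every model of the 10 genes, up to 4 models per list with the smallest adjusted p, and the 3 models closest in profile to the member model with the largest change; any other gene was named with its values known. Some genes that this rule gives are not reported here. As alternatives, the fits were repeated with other pseudocounts, filters and scalings, a replicate block, samples left out, models added per name or a robust variance model. The same alternatives for the lists and for other named genes were added after seeing the data. In samples left out, the models tested were kept.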

Additional observations from a re-analysis of the deposited data

How the results depend on the processing

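Of the 11 models of the chain, 2 were called by limma, and 1 with no filter on low values, with a filter at 5 FPKM (which leaves IRS1 out), with TMM factors or with median-of-ratios factors. Without a single library there were 0 to 4 calls; 0 came without lncFABP4 replicate 2 or 3 and without EGFP replicate 1 or 3, where 3 to 4 models reached an unadjusted p under 0.05. Without replicate 2 or replicate 3 of both groups there were also 0 calls, with 2 and 1 models at an unadjusted p under 0.05. Over all models 2958 were called, 1673 to 3468 without a single library, 1406 without replicate 2 of both groups and 567 without replicate 3 of both groups. Of all calls 61.8% were higher as deposited, 49.2% with TMM or median-of-ratios factors and 50.8% with quantile scaling. Directions that turned belong to models that were not called, and the cause was not tested. AKT1 was at -0.0306 with TMM factors, -0.0303 with median-of-ratios factors, -0.0623 with quantile scaling and -0.0465 without replicate 1 of both groups, and ranged from -0.0624 to 0.0783 without a single library. In the same leave-outs PIK3CA ranged from -0.101 to 0.0887 and FOXO1 from -0.156 to 0.00139. PIK3CA was at 0.0358 without replicate 2 of both groups, and FOXO3 at -0.0177 without replicate 3 of both groups (log2 changes). The 4 ratios kept their direction in all alternatives run. Whether replicate numbers pair the samples is not known. Deviations of same-numbered samples correlated at 0.181, 0.291 and -0.0774, and those of differently numbered samples at -0.327 to 0.199. With the replicate number as a block, 3 of the 11 models were called, among them INSR (limma adjusted p = 0.0483), and 3336 of all models. The unknown depth limits what can be said of models near 1 FPKM.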
